A study of Mus musculus with 40 samples.

Results

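Opposite histories of high-fat feeding were compared in the mouse brain: high fat only after weaning (LF_HF, maternal diet LF and own diet HF) and high fat only before weaning (HF_LF, maternal diet HF and own diet LF). The sample labels gave the maternal and the own diet of each animal, and 20 of the 40 animals had these combinations, 10 in each group. All were male C57BL/6J mice killed at 9 weeks of age after a fast, and each was measured on its own array of whole-brain RNA. The dams ate their diet before and during pregnancy and until weaning at day 21, the sons then ate the LF or HF diet until death, and coconut oil was the main fat of both diets. The other 20 animals ate LF (LF_LF) or HF (HF_HF) throughout and serve here only for reference levels. LF_HF animals came from 4 breeding cages and HF_LF animals from 5, with 0 cages in common. Cage and group therefore cannot be told apart, and p-values over animals take littermates as independent. All differences below are LF_HF minus HF_LF, and a higher value is higher after late high fat.

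The comparison sets feeding that lasted until death against feeding that ended at weaning. The groups of genes used to describe it respond to different inputs. Clock genes form a loop in which CLOCK and BMAL1 switch on Per, Cry and Nr1d genes, whose products hold the loop back, and clock output genes such as Dbp carry the rhythm to other genes. Glucocorticoid target genes such as Fkbp5 follow the adrenal hormone corticosterone through its receptor. Immediate early genes such as Fos and Arc follow neuronal firing within minutes and are followed by late activity genes such as Bdnf. Microglia are the resident immune cells of the brain, and heat shock genes and the unfolded protein response follow misfolded protein in the cytosol and the endoplasmic reticulum.

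A probe was kept if its intensity exceeded background in 20 or more of all 40 arrays, which left 14381 of 25697 probes for 9945 named genes. Any 2 of the 20 arrays correlated at 0.942 to 0.996, with a median of 0.983 within groups and 0.982 between them. By a low mean correlation with the other arrays of all 40, 2 of the 20 stood apart from the rest. Both were in HF_LF (replicate 1 from cage 10 and replicate 9 from cage 12). Replicates 3 and 6 of LF_LF and replicate 5 of HF_HF also stood apart by that rule and were kept in the reference levels. The brain markers Syp (13.53 to 13.87 on the log2 scale), Mbp, Mog, Slc17a7 and Gad1 were above background in all 20 arrays. The single probe of the neuronal gene Snap25 was above background in 0 of 20, the liver gene Alb in 0 of 20, and the pituitary genes Gh and Prl in 1 of 20 each. The muscle gene Acta1 was above background in all 20.

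LF_HF animals were lighter than HF_LF animals at 3 weeks and heavier at the second weighing. At 3 weeks the LF_HF animals weighed 7.82 to 11.1 g with a median of 9.07 g, and the HF_LF animals 9.71 to 12.0 g with a median of 11.0 g. The groups overlapped, 7 of the 10 LF_HF animals were below every HF_LF animal, and the means were 9.18 ± 1.00 g and 10.9 ± 0.836 g (SD, n = 10 each), a difference of -1.75 g or -16.0% (two-sided permutation test, p = 0.00104, adjusted over 5 measures p = 0.0013). At the second weighing they weighed 27.2 to 32.6 g with a median of 30.6 g against 20.4 to 25.8 g with a median of 24.7 g. Every LF_HF animal was above every HF_LF animal, and the difference was 6.59 g or 27.7% (permutation test, p = 6e-05, adjusted p = 0.00015). The labels call the second weight a weaning weight, whereas the methods weigh the animals at 9 weeks. From the first to the second weighing the LF_HF animals gained 21.1 ± 1.4 g and the HF_LF animals 12.8 ± 1.5 g, a gain 65.0% larger in which the groups did not overlap (permutation test, adjusted p = 0.00015).

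**Figure D1:**
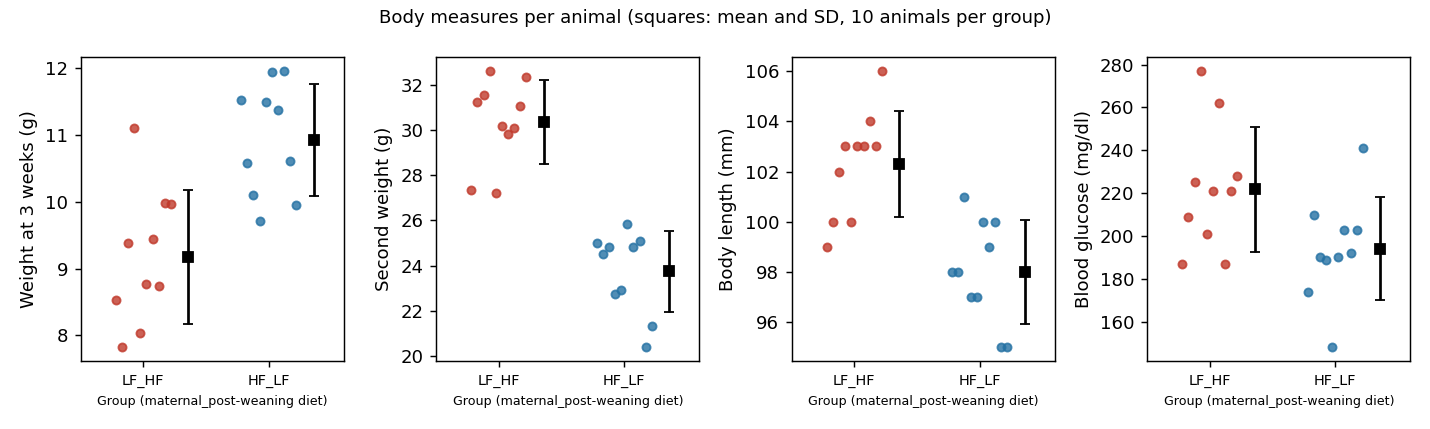
Body weight at 3 weeks (g), the second body weight (g), body length (mm) and blood glucose (mg/dl), 1 point per animal, for LF_HF (red) and HF_LF (blue), with the mean and SD as a black square and bar. LF_HF had the lower mean at 3 weeks (9.18 against 10.9 g) and lay wholly above HF_LF at the second weighing (27.2 to 32.6 g against 20.4 to 25.8 g). The 3-week weight, length and glucose overlapped.

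LF_HF animals were also longer. Their length was 99 to 106 mm with a median of 103 mm, against 95 to 101 mm with a median of 98 mm, and 7 of 10 were longer than every HF_LF animal (difference 4.3 mm or 4.39%, permutation test, adjusted p = 0.000367). Blood glucose was 187 to 277 mg/dl with a median of 221 in LF_HF and 148 to 241 mg/dl with a median of 191 in HF_LF. The ranges overlapped widely, with 2 LF_HF animals above all HF_LF animals, and the means differed by 27.8 mg/dl or 14.3% (permutation test, p = 0.0319, adjusted p = 0.0319). With whole cages permuted over 126 splits, p was 0.0317 for the 3-week weight, 0.00794 for the second weight and for the gain, 0.0238 for length and 0.0952 for glucose. The call for glucose was also lost without cage 1, 4, 9, 10 or 23 (difference 20.5 to 27.3 mg/dl, exact permutation p = 0.0549 to 0.111).

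In the brain, 1 of 14381 probes passed at an adjusted p of 0.05 (0.00695%), a probe of the clock gene Ciart that was lower in LF_HF. The differences of all other genes given below did not pass. At an unadjusted p of 0.05, 682 probes were higher in LF_HF (4.74%) and 203 were lower (1.41%). With 1 probe per gene, the one of highest mean, 504 of 9945 genes were higher (5.07%) and 133 were lower (1.34%), the median difference was 0.02, and 61.3% of genes were on the higher side. The excess on the higher side differed between processing alternatives. Of the probes below p = 0.05, 77.1% were higher as deposited, 76.8% after median centring and 55.2% after cyclic loess normalisation (454 higher and 368 lower). The share was 58% in a regularised test and 68.2% without the 2 arrays that stood apart. It was 57.4% with the arrays' main axis of variation, their first principal component, in the model. The cause was not tested. Counts of list members below p = 0.05 are to be read against the shares of 5.07% and 1.34%, and counts of higher members against 61.3%. Counts given without the 2 arrays that stood apart come from a fit with 391 of 14381 probes higher and 182 lower at an unadjusted p of 0.05. The lists were chosen with earlier results of these data known and were not tested as lists.

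Ciart, also known as Chrono, encodes a repressor of CLOCK and BMAL1 that is itself switched on through E-boxes. The 250 bases before its start of transcription are shown because they hold 3 copies of the E-box CACGTG, a palindrome that reads the same on both strands. They lie at chr3:95882229-95882478 on the minus strand of GRCm38.p6 (sequence from RefSeq), written 5′ to 3′ with the E-boxes in capitals.
Ciart: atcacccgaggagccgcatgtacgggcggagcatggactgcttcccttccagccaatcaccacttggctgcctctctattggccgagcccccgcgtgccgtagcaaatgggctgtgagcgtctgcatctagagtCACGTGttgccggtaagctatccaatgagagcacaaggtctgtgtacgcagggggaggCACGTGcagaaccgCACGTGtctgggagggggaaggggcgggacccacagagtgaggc
Of 32851 promoters of the same length, 6.02% hold at least 1 such E-box and 0.0609% hold at least 3. Of the clock and clock output genes described below, Per1 has 1 match in 1 of its windows, and Per2 was not searched. Dbp, Nfil3, Nr1d1, Nr1d2, Rora, Usp2, Tsc22d3 and Csnk1e have 0. A match is a stretch of letters and not a measured site.

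Both Ciart probes were lower in LF_HF. For the first (ILMN_3029489), LF_HF animals had log2 intensities of 7.88 to 8.19 with a median of 8.08, and HF_LF animals 8.15 to 8.84 with a median of 8.54. The groups overlapped by 1 animal each, so that 9 of 10 LF_HF animals were below every HF_LF animal and 9 of 10 HF_LF animals above every LF_HF animal. The difference was -0.48 on the log2 scale (SE 0.0761, p = 2.56e-06, adjusted p = 0.0369), a level 1.39-fold higher in HF_LF. For the second probe (ILMN_3102736) the ranges were 7.93 to 8.62 with a median of 8.27 and 8.32 to 9.09 with a median of 8.74, and the difference was -0.46 (SE 0.0932, adjusted p = 0.356). All 10 LF_HF animals were below the HF_LF mean at both probes.

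Set side by side in all 4 groups, both Ciart probes had lower means in the 2 groups fed HF after weaning than in the 2 fed LF. The first probe had means of 8.35 in LF_LF, 8.04 in LF_HF, 8.52 in HF_LF and 8.13 in HF_HF, and the second 8.43, 8.27, 8.73 and 8.22. In separate fits that share animals with the one above, the first probe differed by -0.31 from LF_LF to LF_HF (SE 0.09, unadjusted p = 0.0023) and by 0.40 from HF_HF to HF_LF (SE 0.0993, p = 0.000634). It differed by 0.17 between HF_LF and LF_LF (SE 0.105, p = 0.122) and by -0.08 between LF_HF and HF_HF (SE 0.0833, p = 0.329). The second probe differed by -0.16 from LF_LF to LF_HF (SE 0.128, p = 0.222) and by 0.30 from LF_LF to HF_LF (SE 0.131, p = 0.0307), so the probes fell on opposite sides of p = 0.05 in both of these fits. Between HF_LF and HF_HF it differed by 0.51 (SE 0.0864, p = 6.18e-06). LF_LF and LF_HF share cages 4 and 11, and HF_LF and HF_HF share cages 10, 20 and 23, which these fits do not model.

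**Figure D2:**
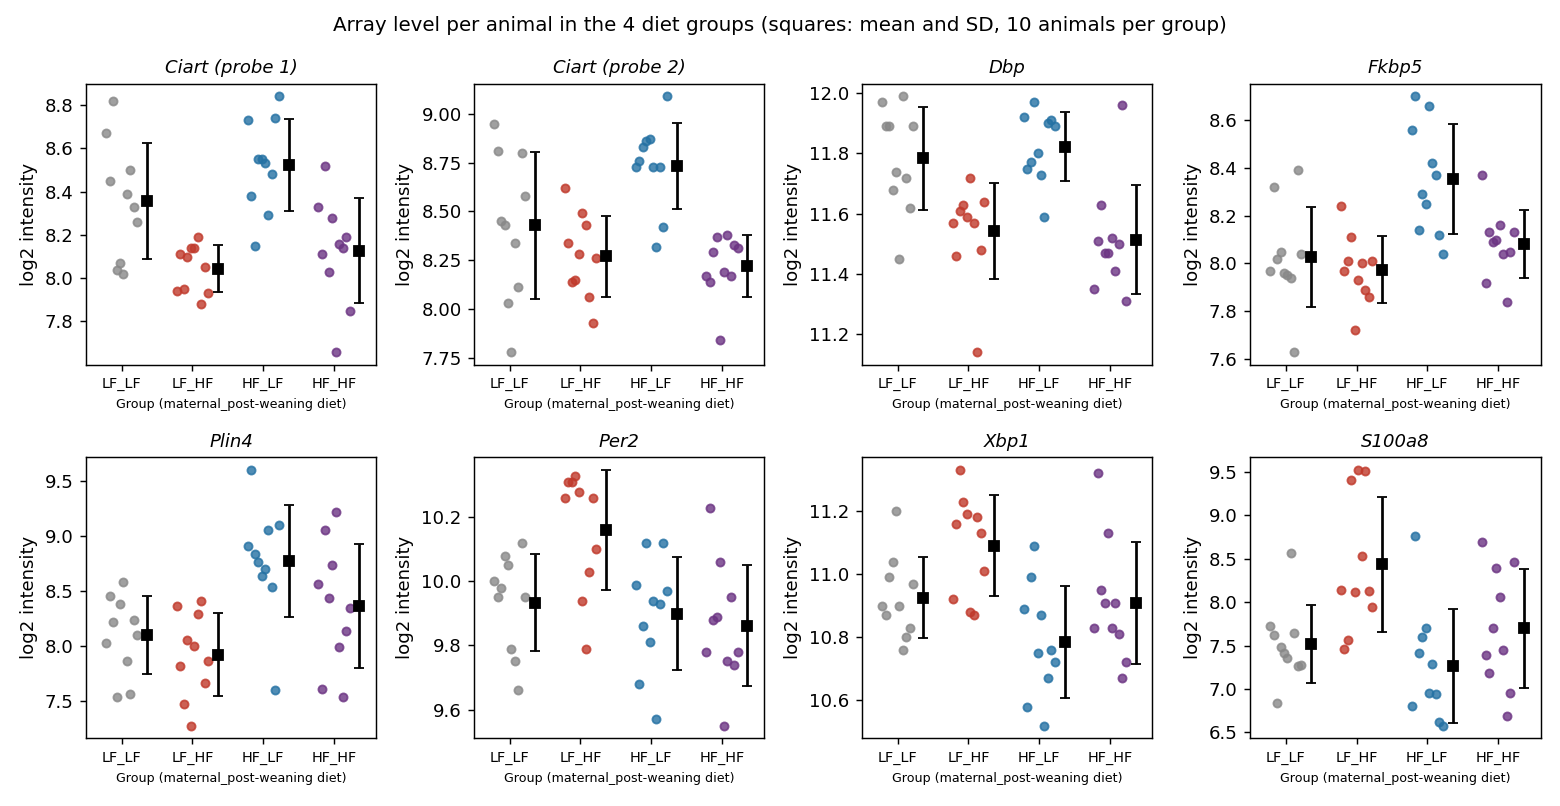
Log2 intensity per animal (y axis) of both Ciart probes, Dbp, Fkbp5, Plin4, Per2, Xbp1 and S100a8 in the 4 diet groups (x axis), 1 point per animal, with the mean and SD as a black square and bar. For the first Ciart probe LF_HF lies at 7.88 to 8.19 and HF_LF at 8.15 to 8.84, and the groups fed HF after weaning have the lower means of Ciart and Dbp under either maternal diet.

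The call for the first Ciart probe was near the threshold. Its adjusted p exceeded 0.05 without cage 4 (0.242), 9 (0.056), 10 (0.143), 11 (0.736), 12 (0.0831), 14 (0.0732), 20 (0.0786) or 23 (0.162), and without the 2 arrays that stood apart (0.116) and with cage means as replicates (0.725), and it was 0.0101 without cage 1. The difference itself stayed between -0.53 and -0.41 over all alternatives, as the plot of Ciart by processing alternative shows. That of the second probe stayed between -0.55 and -0.39.

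**Figure D3:**
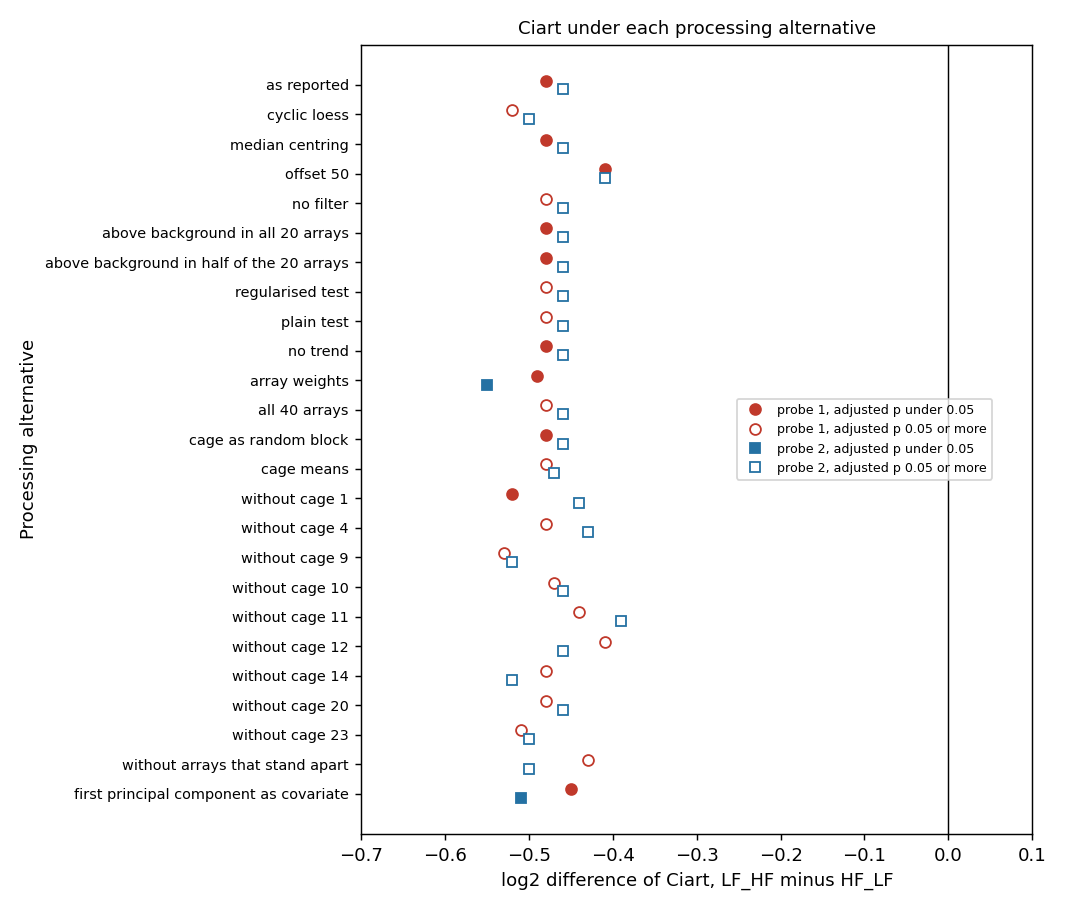
Log2 difference of Ciart, LF_HF minus HF_LF (x axis), for its 2 probes (red circles and blue squares) under each processing alternative (y axis), filled where the adjusted p was under 0.05. All differences of the first probe lie between -0.53 and -0.41, while the call comes and goes with the alternative.

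Among the other clock output genes, Dbp, Usp2 and Tsc22d3 were lower in LF_HF and Nfil3 was higher. Dbp encodes an activator that binds D-boxes and Nfil3 a repressor of the same elements. Dbp levels were 11.14 to 11.72 with a median of 11.58 in LF_HF and 11.59 to 11.97 with a median of 11.85 in HF_LF, and 9 of 10 HF_LF animals were above every LF_HF animal (difference -0.28, SE 0.0627, unadjusted p = 0.000194, adjusted p = 0.356). Nfil3 went the other way, with 8.48 to 9.25 (median 8.81) against 8.19 to 8.83 (median 8.51) and more overlap (0.35, SE 0.0964, p = 0.00135). Usp2, a deubiquitinase named after its value was seen, differed by -0.22 (SE 0.078, p = 0.0113) with -0.08 at its second probe, and Tsc22d3 by -0.18 (SE 0.0578, p = 0.00496) with -0.14 at its second probe. Counted at its brighter second probe, Ciart was 1 of the 8 measured clock output genes. In all, 3 of the 8 measured clock output genes were higher and 5 lower, 1 and 4 of them below p = 0.05, with a median of -0.13.

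Genes of the core loop had a median near that of all genes. Of 14 measured, 7 were higher and 7 lower, with a median of 0.01, and only Per2 was below p = 0.05. Nr1d2 had the largest difference of the list (-0.39, SE 0.243, p = 0.125). Rora, which is also counted among the thalamic genes, differed by -0.24 (SE 0.14, p = 0.104). Per2, a repressor of the loop that also takes input from other signals, was 9.79 to 10.33 (median 10.26) in LF_HF and 9.57 to 10.12 (median 9.94) in HF_LF. Of the LF_HF animals, 6 were above every HF_LF animal, and both probes were higher (0.26, SE 0.0801, p = 0.00354, adjusted p = 0.633, and 0.24). The Per2 mean was also lower in LF_LF (9.93) and HF_HF (9.86) than in LF_HF (10.16). Nr1d1, a repressor of Bmal1, differed by -0.06 (SE 0.0737, p = 0.41), Per1 by 0.03 (SE 0.0934, p = 0.759) and Csnk1e, the kinase of highest level in the list, by -0.04 at 1 probe and 0.06 at the other. The labels gave no hour of collection.

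Glucocorticoid target genes were mostly lower in LF_HF. Of 16 measured, 11 were lower and 5 higher, 6 and 1 of them below p = 0.05, and the median was -0.14 against 0.02 for all genes. Plin4, a lipid droplet coat protein, had the largest difference of the members below p = 0.05. It was 7.28 to 8.41 with a median of 7.94 in LF_HF and 7.60 to 9.60 with a median of 8.81 in HF_LF. All but 1 of the HF_LF animals were above every LF_HF animal (difference -0.85, SE 0.186, p = 0.000146, adjusted p = 0.356), and its level was 1.81-fold higher in HF_LF. Plin4 means were 8.10 in LF_LF and 8.37 in HF_HF, between those of LF_HF (7.92) and HF_LF (8.78).

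Fkbp5, a co-chaperone that limits the glucocorticoid receptor, was 7.72 to 8.24 (median 7.98) in LF_HF and 8.04 to 8.70 (median 8.33) in HF_LF. Of the LF_HF animals, 8 were below every HF_LF animal (difference -0.38, SE 0.0845, p = 0.000181, adjusted p = 0.356). HF_LF stood above the other 3 groups, whose means were 8.03, 7.98 and 8.09 in LF_LF, LF_HF and HF_HF, and it differed from LF_LF by 0.33 (SE 0.0963, unadjusted p = 0.00262) and from HF_HF by 0.27 (SE 0.0854, p = 0.00463). Mt2, a metal-binding metallothionein, differed by -0.30 (SE 0.067, p = 0.000198), and the sulfotransferase gene Sult1a1 by -0.36 (SE 0.102, p = 0.00178). For Sult1a1 too the mean of HF_LF (9.57) was the highest of the 4 groups, ahead of HF_HF (9.41). Klf9, a transcription factor named after its value was seen, differed by -0.21 (SE 0.086, p = 0.0222).

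Pdk4 was the member below p = 0.05 that was higher. It holds back pyruvate use when fat is burned and differed by 0.14 (SE 0.0574, p = 0.0217). Mt1, the list member of highest level, differed by -0.03 (SE 0.0488, p = 0.565). Averaged over the 16 genes, the level was 9.29 to 9.52 in LF_HF and 9.47 to 9.77 in HF_LF, and 8 of 10 HF_LF animals were above every LF_HF animal. Without the 2 arrays that stood apart the median was -0.16, with 8 members lower and 0 higher below p = 0.05. Markers of thalamic neurons, described last, left a gap in their mean level that put 5 LF_HF and 3 HF_LF animals under it. The glucocorticoid level was 9.29 to 9.46 in those 5 LF_HF animals and 9.45 to 9.52 in the other 5, against 9.47 to 9.55 and 9.47 to 9.77 in the HF_LF animals under and above the gap. The part of this regional difference in this and the following lists was not tested. Tsc22d3 and Per1 are in this list as well as in a clock list.

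**Figure D4:**
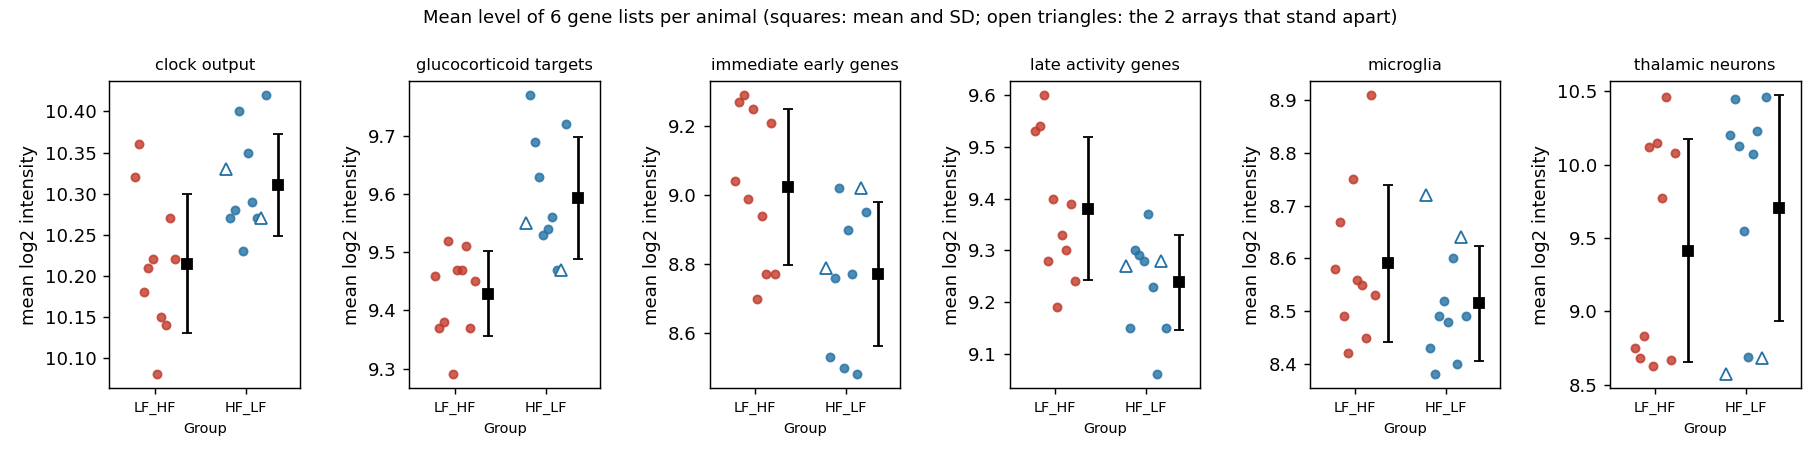
Mean log2 intensity per animal (y axis) over the measured members of 6 gene lists in LF_HF (red) and HF_LF (blue), with the mean and SD as a black square and bar and the 2 arrays that stood apart as open triangles. Glucocorticoid targets lie at 9.29 to 9.52 in LF_HF and 9.47 to 9.77 in HF_LF, immediate early genes at 8.70 to 9.29 and 8.48 to 9.02, and thalamic markers fall into an upper and a lower cluster in both groups.

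Several other genes were among the 10 with the smallest p on the lower side. Cirbp encodes an RNA-binding protein that is induced by mild cold and was 8.23 to 8.71 (median 8.48) in LF_HF and 8.48 to 9.08 (median 8.84) in HF_LF (difference -0.32, SE 0.0856, p = 0.00103). Rbm3, a related cold-inducible gene named after its value was seen, differed by -0.37 (SE 0.109, p = 0.00289) at its brighter probe and by 0.07 at the dimmer one. Xdh, which makes uric acid, differed by -0.26 (SE 0.0728, p = 0.00196) and the ubiquitin ligase gene Fbxl4 by -0.29 (SE 0.0797, p = 0.00165). Hddc2 differed by -0.25 (SE 0.0648, p = 0.000827) at 1 probe and by -0.01 at the other. All 10 LF_HF animals were below the HF_LF mean for Cirbp, Xdh, Fbxl4 and Hddc2, and 9 of 10 for Rbm3.

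Immediate early genes were mostly higher in LF_HF. Of 16 measured, 14 were higher and 2 lower, 7 and 0 of them below p = 0.05, with a median of 0.23. Egr2, a zinc finger transcription factor, was 7.54 to 8.56 (median 7.99) in LF_HF and 6.94 to 8.25 (median 7.39) in HF_LF. Of the HF_LF animals, 7 were below every LF_HF animal (0.60, SE 0.17, p = 0.00183, adjusted p = 0.595), which is 1.52-fold. Fos, a subunit of the AP-1 factor, was 8.91 to 9.81 (median 9.46) and 8.15 to 9.41 (median 8.93), with 5 LF_HF animals above every HF_LF animal (0.46, SE 0.169, p = 0.0121).

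Other members of the list gave differences of the same sign. Dusp6, a phosphatase of the ERK pathway, differed by 0.32 (SE 0.105, p = 0.0059) at its brightest probe, and 0.22 and -0.13 at the other two. The AP-1 genes Fosb and Jund differed by 0.39 (SE 0.142, p = 0.0112) and 0.22 (SE 0.0742, p = 0.0083). The synaptic gene Arc and the AP-1 gene Junb, both named after their values were seen, differed by 0.57 (SE 0.214, p = 0.0135) and 0.29 (SE 0.11, p = 0.0163). Egr1, the member of highest level, differed by 0.32 (SE 0.165, p = 0.0691).

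Egr2 and Fos had higher means in the 2 groups born to LF dams than in the 2 born to HF dams. The means of Egr2 were 7.99 in LF_LF, 8.07 in LF_HF, 7.47 in HF_LF and 7.65 in HF_HF, and the mean of Fos was 9.39, 9.41, 8.95 and 9.17 in the same order. Means of Arc, Junb and Egr1 were split in the same way. Fosb, Jund and Dusp6 were not split so, with means of 7.84, 7.09 and 11.06 in HF_HF against 7.83, 7.01 and 11.05 in LF_LF. In the separate fits Egr2 differed by -0.52 between HF_LF and LF_LF (SE 0.174, p = 0.00714) and by 0.08 between LF_HF and LF_LF (SE 0.15, p = 0.582). Averaged over the 16 genes, LF_HF animals had 8.70 to 9.29 and HF_LF animals 8.48 to 9.02, and 5 of 10 LF_HF animals were above every HF_LF animal. All 5 were those under the gap in thalamic markers, at 9.04 to 9.29, while the other 5 LF_HF animals had 8.70 to 8.99, inside the HF_LF range. The HF_LF animals under the gap had 8.79 to 9.02. The list median was 0.32 without the 2 arrays that stood apart and 0.29 with the first principal component in the model.

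Late activity genes followed with smaller differences. Of 11 measured, 9 were higher and 2 lower, 5 and 0 below p = 0.05, with a median of 0.15. Without the 2 arrays that stood apart 2 members were below p = 0.05 and the median was 0.13. The 5 LF_HF animals whose mean level was above every HF_LF animal (9.39 to 9.60) were again those under the thalamic gap, and the other 5 had 9.19 to 9.33. Bdnf, a neurotrophin, was 8.98 to 9.89 (median 9.61) in LF_HF and 9.12 to 9.57 (median 9.21) in HF_LF. The lowest value of all was in LF_HF, yet 6 LF_HF animals were above every HF_LF animal (0.31, SE 0.0933, p = 0.00356, and 0.16 at the second probe with p = 0.0733). Bdnf means were higher in both groups fed HF after weaning (9.56 in LF_HF and 9.49 in HF_HF) than in those fed LF (9.23 in LF_LF and 9.26 in HF_LF). The secreted peptide precursor Vgf differed by 0.23 (SE 0.0977, p = 0.0298), Gadd45b, which responds to stress and activity, by 0.15 (SE 0.0626, p = 0.0274), and the transcription factor gene Crem by 0.23, 0.26 and 0.07 at its 3 probes. Nrn1 and Sst, the members of highest level here and among the feeding peptides, differed by -0.00 (SE 0.102) and -0.13 (SE 0.159).

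Of 14 heat shock genes measured, 10 were higher and 4 lower in LF_HF, 5 and 0 below p = 0.05, with a median of 0.13. The median was 0.05 without the 2 arrays that stood apart, with the same counts of 5 and 0, and 0.07 with the first principal component in the model. Chordc1, a partner of HSP90, differed by 0.29 (SE 0.0779, p = 0.00117), the co-chaperone Dnajb1 by 0.20 (SE 0.0549, p = 0.00164), Hsph1 by 0.27 (SE 0.083, p = 0.00404) and Hspa1a, the inducible HSP70 with a near-identical copy in Hspa1b, by 0.27 (SE 0.0868, p = 0.00531). Hspb1, a small heat shock protein named after its value was seen, differed by 0.26 (SE 0.0887, p = 0.00809). All 10 LF_HF animals were above the HF_LF mean for Chordc1 and Dnajb1, 9 for Hspa1a and 8 for Hsph1 and Hspb1. Hspa8, the constitutive member of highest level, differed by -0.02 (SE 0.0775) and 0.01 at its 2 probes.

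Stretches of 2 heat shock promoters are shown because they hold the letters GAANNTTC, the inverted repeat at the core of heat shock elements, which reads the same on both strands. The Hspb1 stretch lies at chr5:135887769-135887858 on the plus strand and the Hspa1a stretch at chr17:34972217-34972291 on the minus strand of GRCm38.p6 (RefSeq), with the matches in capitals.
Hspb1: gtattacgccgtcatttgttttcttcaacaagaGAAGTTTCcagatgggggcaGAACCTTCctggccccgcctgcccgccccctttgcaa
Hspa1a: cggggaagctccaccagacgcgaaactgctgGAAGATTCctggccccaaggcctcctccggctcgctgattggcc
Of the 32851 promoters, 6.69% hold at least 1 match in 250 bases and 0.228% hold at least 2. The windows of Chordc1, Dnajb1 and Hsph1 hold 0. Dnaja1, Hspd1 and Hspe1, named after their values were seen, differed by 0.02 (SE 0.066), -0.15 (SE 0.149) and -0.29 (SE 0.271). Dnaja1 and Hspd1 each have 1 match in 1 of their windows, and Hspe1 has 1. The matches of Hspd1 and Hspe1 are the same bases, read from overlapping windows on opposite strands.

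Of 15 genes of the unfolded protein response, 10 were higher in LF_HF and 5 lower, near the 61.3% higher of all genes. Of these, 5 and 0 were below p = 0.05, and the median was 0.08. After cyclic loess normalisation 9 of 15 were higher and the median was 0.05. Without the 2 arrays that stood apart 3 were below p = 0.05 and the median was 0.10. When a cage was left out the median ran from 0.00 (cage 14) to 0.12 (cage 1). Among the lower members, Hspa5 differed by -0.17 (SE 0.19, p = 0.392) and Dnajb9 by -0.20 (SE 0.213, p = 0.353). Xbp1, the transcription factor spliced by IRE1, was 10.87 to 11.33 (median 11.14) in LF_HF and 10.52 to 11.09 (median 10.76) in HF_LF. Of the HF_LF animals, 7 were below every LF_HF animal (0.31, SE 0.074, p = 0.000447, adjusted p = 0.438). The Xbp1 mean of LF_HF (11.09) was the highest of the 4 groups (10.93 in LF_LF and 10.91 in HF_HF). The secreted chaperone gene Creld2 differed by 0.37 (SE 0.107, p = 0.00227) and 0.34 at its 2 probes, and the disulfide isomerase gene Pdia4 by 0.23 (SE 0.074, p = 0.00499). Ddit3, which encodes CHOP, differed by 0.23 (SE 0.102, p = 0.0355) and 0.11, and the chaperone of highest level, Hsp90b1, by 0.06 (SE 0.106).

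**Figure D5:**
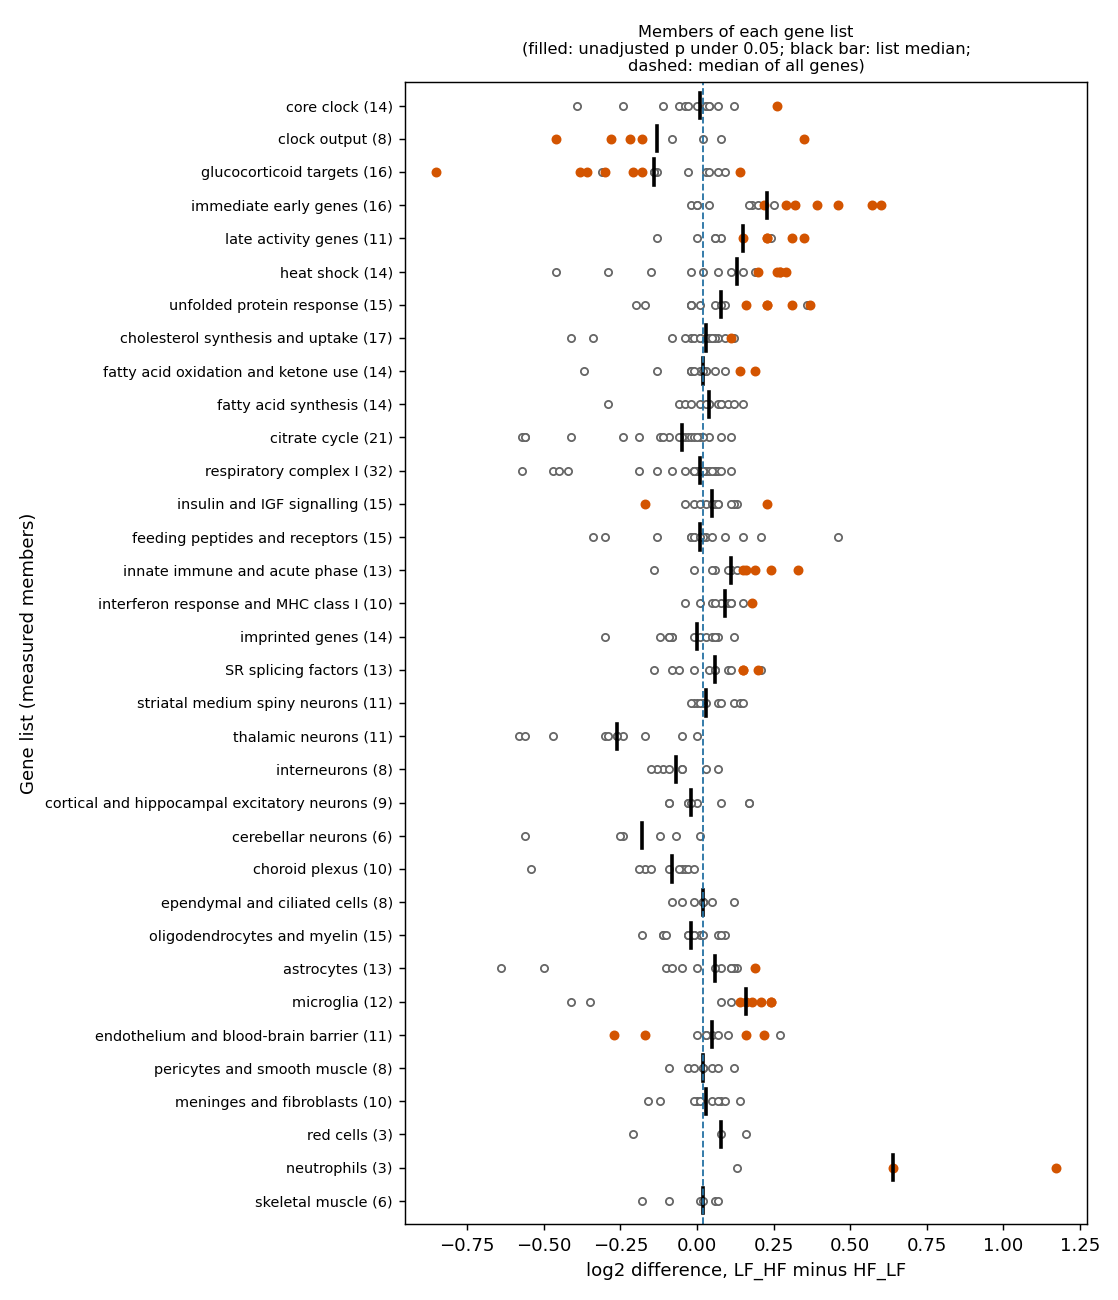
Log2 difference, LF_HF minus HF_LF (x axis), of every measured member of 34 gene lists (y axis), with filled points for an unadjusted p under 0.05, a black bar at the list median and a dashed line at the median of all genes (0.02). Glucocorticoid targets and clock output lie to the left (medians -0.14 and -0.13), and immediate early genes, late activity genes and microglia to the right (0.23, 0.15 and 0.16). Thalamic and cerebellar neurons lie further left (-0.26 and -0.18), with 0 members below p = 0.05, and the 3 measured neutrophil genes furthest right (0.64).

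Microglial and innate immune genes were mostly higher in LF_HF. Of 12 microglial genes measured, 10 were higher and 2 lower, 6 and 0 below p = 0.05, with a median of 0.16. In whole-brain RNA, a difference in the number of cells of a type and a difference in RNA per cell cannot be told apart. Cx3cr1, the fractalkine receptor, was 9.08 to 9.59 (median 9.23) in LF_HF and 8.81 to 9.26 (median 9.06) in HF_LF, and 5 HF_LF animals were below every LF_HF animal (0.24, SE 0.0685, p = 0.00227). The complement gene C1qb differed by 0.24 (SE 0.0936, p = 0.018), Tmem119 by 0.21 (SE 0.0803, p = 0.0148), the adaptor gene Tyrobp by 0.14 (SE 0.0529, p = 0.0161) and Laptm5, the member of highest level, by 0.16 (SE 0.0954, p = 0.117). The 2 lower genes, P2ry12 and Ctss, had larger but less certain differences of -0.35 (SE 0.363, p = 0.35) and -0.41 (SE 0.318, p = 0.213). Averaged over the 12 genes the groups overlapped almost wholly (8.42 to 8.91 and 8.38 to 8.72). Only 2 LF_HF animals were above every HF_LF animal, and both were under the gap in thalamic markers. Without the 2 arrays that stood apart 3 members were below p = 0.05.

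Of 13 innate immune and acute phase genes measured, 11 were higher and 2 lower, 5 and 0 below p = 0.05, with a median of 0.11. C1qb and C1qc are 2 of these 5 and are also counted among the microglial genes. Without the 2 arrays that stood apart the median was 0.07, with 2 higher and 1 lower below p = 0.05. The interferon-induced membrane protein genes Ifitm3 and Ifitm2 differed by 0.33 (SE 0.125, p = 0.0148) and 0.19 (SE 0.0762, p = 0.0204), and Il6st, the shared receptor chain gp130, by 0.15 (SE 0.0632, p = 0.0305). Of 10 interferon and MHC class I genes, 9 were higher and 1 lower with a median of 0.09, and only Rsad2 was below p = 0.05 (0.18, SE 0.0775, p = 0.0298). B2m, the MHC class I light chain, differed by 0.01 (SE 0.048) and 0.09 at its 2 probes.

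S100a8 and S100a9 together make the neutrophil protein calprotectin, and S100a8 had the largest difference among the named higher genes. S100a8 was 7.46 to 9.52 (median 8.13) in LF_HF and 6.58 to 8.76 (median 7.12) in HF_LF, and 7 HF_LF animals were below every LF_HF animal (1.17, SE 0.296, p = 0.000715, adjusted p = 0.5), which is 2.24-fold. S100a9 was 6.48 to 7.74 (median 7.0) and 6.14 to 7.07 (median 6.37), above background in 10 LF_HF but only 4 HF_LF animals, so that its fitted difference rests on HF_LF values mostly at background (0.64, SE 0.15, p = 0.000332, adjusted p = 0.438). The S100a8 mean of LF_HF (8.43) was above those of LF_LF (7.52) and HF_HF (7.70), and the separate fits gave 0.91 (SE 0.262, p = 0.0022) and 0.74 (SE 0.3, p = 0.0226). Of the 10 neutrophil genes listed, 7 were below background, and the 3 measured were all higher. Of the red cell genes, which would come with blood, 2 of 3 were higher, and 0 of 3 without the 2 arrays that stood apart. Hba-a1, a globin, differed by 0.16 (SE 0.203, p = 0.437), and by -0.03 without those arrays. Hbb-bt, a globin named after its value was seen, differed by -0.21 (SE 0.227, p = 0.373). The part of blood cells in these values was not tested.

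Other genes led the higher side by p. Icam2, an adhesion molecule of endothelium and blood cells, was 7.12 to 7.47 (median 7.35) in LF_HF and 6.80 to 7.29 (median 7.05) in HF_LF, and 8 LF_HF animals were above every HF_LF animal (0.32, SE 0.0647, unadjusted p = 7.43e-05, adjusted p = 0.356). Myo1f, a myosin of immune cells, was 6.64 to 6.95 (median 6.80) against 6.35 to 6.75 (median 6.59), with 8 animals of each group beyond the range of the other (0.22, SE 0.0491, p = 0.000162). Its HF_LF values lay close to background, and 10 LF_HF and 9 HF_LF animals were above it. P4ha1, a collagen prolyl hydroxylase, differed by 0.26 (SE 0.0602, p = 0.000293), and Osmr, the oncostatin M receptor, by 0.22 (SE 0.0541, p = 0.000492).

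The remaining genes of that kind act mainly in nuclei or in glia. Midn, which carries proteins to the proteasome, differed by 0.30 at both probes (SE 0.072, p = 0.000379). The transcriptional corepressor gene Cbfa2t3 differed by 0.44 (SE 0.107, p = 0.000415) and by 0.10 at its dim second probe (p = 0.0463). The splicing regulator gene Celf1 differed by 0.27, 0.24 and 0.01 at its 3 probes. Mbp, a myelin protein gene, differed by 0.32 (SE 0.0789, p = 0.000535) at its dimmest probe and by 0.01 (SE 0.0964) and 0.03 at its 2 brighter ones. All 10 LF_HF animals were above the HF_LF mean for Midn and Celf1 and 9 of 10 for Cbfa2t3.

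Blood-brain barrier transporters differed in both directions. Of 11 endothelial genes, 9 were higher and 2 lower, 2 of each below p = 0.05, with a median of 0.05. Slc2a1, the glucose transporter GLUT1, was 10.57 to 11.42 (median 11.20) in LF_HF and 11.01 to 11.76 (median 11.43) in HF_LF, with 6 HF_LF animals above every LF_HF animal (-0.27, SE 0.0949, p = 0.00857). The anion transporter genes Slco1a4 and Slco1c1 went opposite ways, with -0.17 (SE 0.0522, p = 0.00375) and 0.22 (SE 0.0623, p = 0.00228), and Tek, the angiopoietin receptor, differed by 0.16 (SE 0.0613, p = 0.0162). The means of Slc2a1 were 11.24 in LF_LF and 11.14 in HF_HF. Of 13 genes of SR splicing factors and their kinases, 9 were higher and 4 lower with a median of 0.06, among them Clk3 (0.20, SE 0.0687, p = 0.0082), Srsf3 (0.15, SE 0.0503, p = 0.00619, and 0.08 at its second probe) and Srsf10 (0.15, SE 0.0613, p = 0.0238, and 0.13 and 0.05 at its other probes). Srsf1, the member of highest level, differed by 0.04 (p = 0.417) and 0.16 (p = 0.0441) at its 2 probes.

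Gene lists of fuel metabolism had median differences near that of all genes. Of 14 genes of fatty acid oxidation and ketone use, 8 were higher and 6 lower with a median of 0.02. The thioesterase gene Acot1 differed by 0.19 (SE 0.0887, p = 0.0424) and 0.13, and Oxct1, which uses ketones, by 0.03 (SE 0.0669). Of 17 cholesterol genes, 11 were higher and 6 lower with a median of 0.03, and only Srebf2, their regulator, was below p = 0.05 (0.11, SE 0.0506, p = 0.0407). Hmgcs1, Lss and Msmo1, enzymes of the pathway, differed by 0.07 (SE 0.0711), 0.04 (SE 0.0803) and -0.01 (SE 0.0559). Fatty acid synthesis gave 10 higher and 4 lower of 14 (median 0.04), with Fads1 at 0.03 (SE 0.0484) and its regulators Srebf1 and Pparg at 0.10 (SE 0.0901) and -0.02 (SE 0.12).

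Medians of mitochondrial genes were also small, while some members differed by more. Citrate cycle genes were lower in 16 of 21 cases with a median of -0.05 and 0 below p = 0.05. Without the 2 arrays that stood apart the median was -0.04, with 1 of 21 higher. Idh2, Dld and Sdhd differed by -0.56 (SE 0.331), -0.57 (SE 0.385) and -0.56 (SE 0.353), and Mdh1 by -0.41 (SE 0.197, p = 0.0517). Suclg1, the member of highest level, differed by -0.12 (SE 0.0784). Of 32 complex I genes, 18 were higher and 14 lower with a median of 0.01, and Ndufa13 differed by -0.01 (SE 0.0372). Ndufb4 and Ndufb5 differed by -0.57 (SE 0.333) and -0.47 (SE 0.332). Without the 2 arrays that stood apart the complex I median was -0.03, with 9 of 32 higher. Of 15 insulin and IGF genes, 12 were higher and 3 lower with a median of 0.05, and Irs2, an adaptor of the insulin receptor, and Igfbp5 differed by 0.23 (SE 0.107, p = 0.0404) and -0.17 (SE 0.0771, p = 0.0377). Igf2 differed by 0.05 (SE 0.156).

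Hypothalamic feeding peptides varied widely between animals of the same group. Of 15 measured, 8 were higher and 7 lower with a median of 0.01 and 0 below p = 0.05. Pmch, the melanin-concentrating hormone precursor, ran from 6.65 to 12.13 (median 7.84) in LF_HF and from 6.43 to 12.38 (median 10.04) in HF_LF (-0.34, SE 0.948). Hcrt, the orexin precursor, ran from 6.24 to 9.46 and from 6.26 to 9.95 (-0.30, SE 0.569). Cartpt differed by 0.21 (SE 0.317) and Npy, which many cortical interneurons also make, by 0.03 (SE 0.142).

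Markers of single brain regions also varied widely within groups. Of 11 thalamic genes measured, 10 were lower and 1 higher in LF_HF with a median of -0.26 and 0 below p = 0.05. Their mean level per animal left a gap between 8.83 and 9.55, with 5 LF_HF and 3 HF_LF animals under it and 5 and 7 above it. Both arrays that stood apart were under the gap, and without them the median was -0.60, with 2 members lower below p = 0.05. Of 10 choroid plexus genes, all were lower with a median of -0.08 (-0.32 without those 2 arrays) and 0 below p = 0.05, and Ttr, the thyroxine carrier made there, ran from 7.66 to 14.41 in LF_HF and from 8.95 to 14.57 in HF_LF (-0.54, SE 1.03). Zic1, the cerebellar gene of highest level, differed by -0.56 (SE 0.331, p = 0.108), and 5 of 6 cerebellar genes were lower (median -0.18).

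Other cell types gave medians of -0.07 to 0.06 and at most 1 member below p = 0.05 each. Without the 2 arrays that stood apart the medians were 0.13 for striatal neurons (11 of 11 higher), -0.14 for oligodendrocytes (2 of 15 higher), -0.14 for ependymal cells (1 of 8 higher) and -0.08 for imprinted genes (2 of 14 higher). Striatal neurons gave 9 higher and 2 lower of 11 (median 0.03, Pde1b -0.02 with SE 0.175), interneurons 2 and 6 of 8 (median -0.07, Gad1 -0.11 with SE 0.0959) and excitatory neurons of cortex and hippocampus 4 and 5 of 9 (median -0.02, Camk2a 0.17 with SE 0.121). Oligodendrocyte genes were higher in 5 and lower in 10 of 15 cases (median -0.02). Astrocyte genes were higher in 7 and lower in 6 of 13 cases (median 0.06), and the glutamate transporter gene Slc1a2 differed by 0.19 (SE 0.0715, p = 0.0139), 0.16 and -0.02 at its 3 probes while Aldoc differed by -0.00 (SE 0.0544). Ependymal genes (median 0.02, Rarres2 0.02 with SE 0.247), pericyte genes (0.02, Vtn -0.01 with SE 0.0958), meningeal genes (0.03, Ptgds -0.16 with SE 0.13) and muscle genes (0.02, Pvalb -0.09 with SE 0.153) had 0 members below p = 0.05. So did the 14 imprinted genes (median 0.00, Snrpn -0.08 with SE 0.0666 and 0.03 at its second probe), and 0 of 8 pituitary genes passed the filter on background. Cplx1, a synaptic gene and the thalamic list's member of highest level, differed by 0.00 (SE 0.0505).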

How the data were processed

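Whole-brain RNA of 20 male mice, 1 array each, was compared. The authors hybridised Illumina MouseRef-8 v2.0 arrays and, with BeadStudio, exported and quantile-normalised them; the sources used here name no version. The deposited values are linear intensities, 48.4 to 30357.2, of 25697 probes, with no background subtraction visible. Sorted values of different arrays differ by at most 1.1, so the normalisation leaves no array-wide level to compare, and the number of arrays limits the precision (median SE of a log2 difference 0.0716).

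From there, log2 was taken with no offset. Background was the 95th percentile, per array, of 1341 probes of olfactory, vomeronasal and taste receptors (intensity 81.6 to 88.4). Probes above it in at least 20 of 40 arrays were kept. Probes with 1 gene symbol numbered 23978 and 1719 had none, and 23962 matched a RefSeq symbol. limma 3.58.1 (R 4.3.3) fitted LF_HF and HF_LF with a mean-variance trend, and p-values were adjusted by Benjamini-Hochberg over the kept probes at 0.05. Genes were counted at the probe of highest mean. Every p for a gene is from this fit and unadjusted unless called adjusted. Body measures were compared by a two-sided permutation test (100000 resamples, scipy 1.17.1) and adjusted over 5 measures, and by permuting whole cages. The samples are separate animals, some of 1 cage, and replicate numbers only name them. The correlation within cages that limma estimated was -0.0519.

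The genes named were those passing the threshold, the 10 of smallest p in each direction, up to 4 members of each list below p = 0.05, each list's member of highest level and a fixed set of genes of interest, with further genes marked as named after their values were seen. The compared groups, the gene lists and the named genes were chosen with earlier results of these data known. Alternatives were other normalisations, offsets, filters and tests, array weights, a fit of all 40 arrays, cage as a random block, cage means, leaving out each cage and the arrays that stood apart, and, chosen after seeing the data, the first principal component of the arrays in the model. The scripts were tested on simulated data.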

Additional observations from a re-analysis of the deposited data

Results flagged for a closer look

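In 11 of 224 groups of 10 animals tested (4.91%), 1 animal lay far from the others of its group, with a gap to the nearest over 0.466 of the group's range, which chance gives in about 1 group of 20. For Plin4 the lowest HF_LF animal (replicate 9, one of the 2 arrays that stood apart) was at 7.60 with the next at 8.54, and the difference was -0.85 with it and -0.98 without it. For Dbp the lowest LF_HF animal was at 11.14 with the next at 11.46 (-0.28 with it, -0.24 without it). For S100a8 the highest HF_LF animal was at 8.76 with the next at 7.70 (1.17 and 1.33). For Cx3cr1 the highest LF_HF animal was at 9.59 with the next at 9.33 (0.24 and 0.20), and for Crem the lowest HF_LF animal was at 6.72 with the next at 7.12 (0.23 and 0.17).

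One LF_HF animal (replicate 1) was the highest of its group both for Usp2, at 10.67 (-0.22 with it and -0.25 without it), and for Nr1d1, at 8.54 with the next at 8.31 (-0.06 and -0.10). One HF_LF animal (replicate 6) was the highest for Pparg, at 7.54 with the next at 7.13 (-0.02 and 0.04), and the lowest for the brightest Mbp probe, at 13.84 with the next at 14.38 (0.01 and -0.07). The lowest LF_HF animal for Il6st was at 7.60 with the next at 7.81 (0.15 and 0.18), and the highest for Hba-a1 was at 13.87 with the next at 13.15 (0.16 and 0.05).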

How the results depend on the processing

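The Ciart call was the 1 call as reported. By limma or the test named, 0 probes passed after cyclic loess, with no filter on low values, in the regularised test, in the plain test, in the fit of all 40 arrays, with cage means and without the arrays that stood apart, 3 passed with array weights (both Ciart probes, adjusted p = 0.00348 each, and Plin4) and 3 with the first principal component in the model (both Ciart probes, 0.0342 and 0.0363, and Icam2), and 0 to 1 passed when a cage was left out. The cause was not tested. In the settings with 0 calls, 357 to 900 probes were higher and 110 to 476 lower at an unadjusted p of 0.05.

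The count of higher probes at that level was 454 after cyclic loess, 362 in the regularised test, 391 without the arrays that stood apart and 357 to 1088 when a cage was left out. The count of lower probes was 368 after cyclic loess, 476 with no filter, 453 with the first principal component and 110 to 464 when a cage was left out. The share of higher probes among these was 77.1% as reported, 58% in the regularised test and 65.3% with no filter. Glucose differed by 27.8 mg/dl with whole cages permuted and 27.1 with cage means (exact permutation p = 0.0952 for both), and by 20.5 to 34.8 when a cage was left out. The other body measures kept their calls.

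The genes that changed sign had reported differences smaller than their SE. After cyclic loess B2m was -0.01, Cplx1 -0.00 and Rarres2 -0.02. With array weights Hspa8 was 0.00, Lss -0.00, Msmo1 0.03, Npy -0.05, Pde1b 0.01, Rarres2 -0.04 and Vtn 0.02. With cage means Aldoc was 0.00, Cplx1 -0.02, Hspa8 0.02, Mbp -0.04, Nrn1 0.01, Pparg 0.02 and Rarres2 -0.03. Without the arrays that stood apart Cplx1 was -0.02, Hba-a1 -0.03, Hspa8 0.03, Igf2 -0.05, Lss -0.02, Mbp -0.03, Msmo1 0.00, Ndufa13 0.01, Nrn1 0.04, Oxct1 -0.01, Pde1b 0.01, Rarres2 -0.24 and Sst 0.02. With the first principal component Aldoc was 0.01, Cplx1 -0.02, Hspa8 0.05, Igf2 -0.02, Lss -0.02, Mbp -0.03, Nrn1 0.04, Oxct1 -0.02, Pparg 0.00, Rarres2 -0.18 and Sst 0.04.

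Leaving out a cage gave Aldoc -0.02 to 0.04, B2m -0.01 to 0.04, Cartpt -0.03 to 0.41, Cplx1 -0.02 to 0.03, Fads1 -0.01 to 0.05, Hba-a1 -0.01 to 0.27, Hcrt -0.68 to 0.02, Hsp90b1 -0.01 to 0.12, Hspa8 -0.07 to 0.07, Igf2 -0.04 to 0.16 and Lss -0.00 to 0.11. It gave Mbp -0.09 to 0.06, Msmo1 -0.06 to 0.05, Mt1 -0.06 to 0.00, Ndufa13 -0.04 to 0.01, Npy -0.07 to 0.11, Nrn1 -0.06 to 0.04, Pde1b -0.18 to 0.12, Pmch -0.98 to 0.11, Pparg -0.08 to 0.06, Rarres2 -0.07 to 0.14 and Vtn -0.08 to 0.06. No paired analysis was possible because the replicate numbers are in accession order only and no cage holds animals of both groups. The groups come from 4 and 5 cages, and probes not above background were left out.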
